A study of Mus musculus with 6 samples.

Results

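The complement components and regulators described here are 9 genes, taken as the rows of the count table with the symbols C1qa, C1qb, C1qc, C3, Cfp, Cfb, Cd93, Cd55 and Serping1, out of 35976 symbols in all. The libraries came from RAW264.7, a macrophage-like line made from a mouse tumour induced by Abelson leukaemia virus, and were 3 of cells exposed to itaconate for 24 h and 3 of control cells labelled as having no treatment. Itaconate is a small dicarboxylic acid derived from the TCA cycle, and macrophages produce it when activated. Its dose and chemical form are not given in the labels, nor is a vehicle for the control, and the labels do not say that the 3 libraries of a group are separate cultures. The p-values below therefore rest on spread among libraries that could be technical only.

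Complement is a cascade of plasma proteins that tags microbes and cell debris for uptake and can puncture membranes. The classical pathway starts when C1q, a multimer built from the chains encoded by C1qa, C1qb and C1qc, binds antibody or other ligands, and all routes meet at the cleavage of C3. In the alternative pathway, factor B (Cfb) forms a convertase with cleaved C3, and properdin (Cfp) stabilises that enzyme. Macrophages are a main source of C1q and make properdin and C3 outside the liver, which supplies most of the C3 in plasma.

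All 9 genes had a row, 7 of them had a count in at least 1 library, and 5 passed the filter on low counts. Of the 9 genes, C1qb, C3, Cfp and Cfb were called lower in itaconate libraries (edgeR quasi-likelihood test, adjusted p under 0.05), 0 were called higher and Cd93 was tested but not called. C1qa and C1qc had too few counts for the filter, and Cd55 and Serping1 had 0 counts in all 6 libraries. Among all 10636 genes tested, 11.2% were called lower and 10.7% higher. C1qb and Cfb passed the filter with 3 control libraries and 0 itaconate libraries, and C3 with 3 control libraries and 1 itaconate library over its limit of 1.76 CPM, so these genes could be tested only because they were present in control cells. The share of the tested genes called therefore says nothing about the 9 as a group.

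Library totals ran from 5202626 to 6098934 counts, so 3 counts, the most that a count of 0 allows, correspond to between 0.487 and 0.565 CPM (read counts relative to the TMM-scaled library size) in a library. These limits, and the intervals on counts below, cover counting error only, because reads counted without molecular identifiers can be copies of 1 molecule. All 10 macrophage markers examined, among them Adgre1, Cd68, Lyz2 and Csf1r, had enough counts to be tested. Of 30 markers of hepatocytes, fibroblasts, endothelium, T cells, B cells, and neutrophils or mast cells, 19 had 0 counts in all libraries, among them Apoa1, Dcn, Cdh5, Cd3e and Ly6g, and none was tested. The other 11 had at most 15 counts in a library, that being Kdr in itaconate replicate 1. One of them, the neutrophil elastase gene Elane, had 0 counts in each itaconate library and 7, 9 and 4 counts in control libraries, which is the range and direction of C1qa and C1qc below, and its part in those values was not tested. The macrophage markers moved with the comparison as well, with 6 of 10 lower and 1 higher. Their summed level was 6270 to 6610 CPM in itaconate libraries and 8430 to 9570 CPM in control libraries. Among those lower, Csf1r and Cd14 had means of 3693 and 1507 CPM in control and 1837 and 777 CPM in itaconate libraries. Cd68 rose from 1095 to 1346 CPM, and Adgre1, Lyz2 and Mertk were not called. The part of these markers in the results below was not tested. The summed markers of each of the 6 other cell types stayed under 3 CPM in every library. In bulk RNA, fewer expressing cells and less RNA per cell cannot be told apart.

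The sequence before the transcription start is shown for the members that had counts and a RefSeq promoter entry, since 3 of these 4 genes were called lower, so that their start regions can be read side by side. RefSeq promoters (GRCm38.p6) were matched for 5 of the 9 symbols, C1qb, C1qc, C3, Cfp and Cd55. The bases upstream of the start, 250 for each gene except C1qc, are chr4:136886201-136886450 for C1qb, chr4:136893066-136893164 for C1qc, chr17:57228137-57228386 for C3 and chrX:20931556-20931805 for Cfp, all on the minus strand and printed 5′ to 3′ along the gene. The RefSeq start of C1qc lies 151 bases inside the gene as GENCODE annotates it, so only the 99 bases upstream of both starts are shown for C1qc. Capitals mark every match to any of 6 motifs searched on both strands.
C1qb: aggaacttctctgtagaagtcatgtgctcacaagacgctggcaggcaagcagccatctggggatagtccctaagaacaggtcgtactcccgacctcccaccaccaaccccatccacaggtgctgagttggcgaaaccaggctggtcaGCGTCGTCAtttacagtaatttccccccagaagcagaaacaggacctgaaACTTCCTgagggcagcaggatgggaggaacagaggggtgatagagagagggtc
C1qc: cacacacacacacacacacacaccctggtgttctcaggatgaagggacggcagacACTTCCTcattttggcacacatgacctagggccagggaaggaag
C3: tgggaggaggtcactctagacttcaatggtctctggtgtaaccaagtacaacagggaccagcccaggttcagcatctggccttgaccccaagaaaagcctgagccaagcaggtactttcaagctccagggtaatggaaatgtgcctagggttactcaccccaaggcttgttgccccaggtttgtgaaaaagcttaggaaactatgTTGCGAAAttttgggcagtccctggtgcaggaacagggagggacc
Cfp: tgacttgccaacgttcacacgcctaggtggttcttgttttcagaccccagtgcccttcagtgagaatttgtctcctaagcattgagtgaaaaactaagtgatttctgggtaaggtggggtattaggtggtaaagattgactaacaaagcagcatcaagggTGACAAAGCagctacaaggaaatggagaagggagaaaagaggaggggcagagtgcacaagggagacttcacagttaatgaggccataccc

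The 6 motifs were the antioxidant response element bound by NRF2 with small MAF proteins (TGACNNNGC), a MAF core site (TGCTGAC), the interferon-stimulated response element (GAAANNGAA), the gamma-activated site of the interferon gamma response (TTCNNNGAA), a C/EBP site (TTGCNNAA) and the core bound by the myeloid factor PU.1 (AGGAAGT). C1qb and Cfp each held 1 match to the antioxidant response element, which 10.2% of 32851 promoter windows of the same length also held. In C1qb that match was on the opposite strand, at 103 to 95 bases before the start, and in Cfp on the gene's strand at 90 to 82 bases. C1qb and C1qc each held 1 PU.1 core on the opposite strand, against 7.69% of all windows. It lay at 53 to 47 bases before the start in C1qb, and in C1qc at 195 to 189 bases before the RefSeq start or 44 to 38 bases before the GENCODE start. The window of C3 held 1 C/EBP match at 45 to 38 bases, against 9.56% of all windows. Of the other motifs, held by 3.81% (MAF core), 7.13% (interferon-stimulated) and 7.02% (gamma-activated) of windows, these 4 windows contained none, and the MAF core was found once in that of Cd55. None of these matches overlapped another. They describe letters in a window and do not show that a factor binds there.

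C1q transcripts were at or near 0 in itaconate-exposed cells. The 3 genes lie side by side on chromosome 4, within 18.7 kb from 136880129 to 136898803 (GRCm38), all on the minus strand in the order C1qa, C1qc, C1qb. Summed over the 3 chains, itaconate libraries held 0, 0 and 2 counts, and control libraries 39, 63 and 32 counts. No other annotated gene overlaps their exons, and no 50-base stretch in the last 500 bases of their transcripts occurs in transcripts of another gene.

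C1qb, the gene of the B chain, had 0 counts in each itaconate library, against 27, 41 and 21 counts in control libraries. That is 5.03 ± 1.44 CPM in control cells (SD, n = 3), and every control library lay above the limit that 0 counts allow. Taking 3 counts over the whole itaconate group as the floor, the bound on the fall of C1qb was 27.8-fold. C1qb was tested only because of its control libraries, and its edgeR adjusted p was 4.07e-06. That bound leaves out counting error in control cells. With this error included, the exact 95% counting interval for the ratio of itaconate to control reached up to 0.0452, a smaller fall. Across the 13 alternatives in which C1qb could be tested, its adjusted p ran from 9.37e-08 to 0.000519.

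C1qc, the gene of the C chain, had 0 counts in each itaconate library, against 7, 15 and 7 counts in control libraries. By the same floor the bound on its fall in itaconate cells was 9.05-fold. The counting interval for the ratio reached up to 0.145, again a smaller fall. C1qc was not tested with the filter. With the filter removed it was called lower (edgeR adjusted p = 0.0296 over 17720 genes). That fit gave Cfp an edgeR adjusted p of 7.35e-39, against 5.9e-15 with the filter, at the same log2 fold change of -1.65. Cd93 went the other way, from 0.465 to 0.531. The call of C1qc rests on the fit without a filter alone.

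C1qa, the gene of the A chain, had 0, 0 and 2 counts in itaconate libraries and 5, 7 and 4 counts in control libraries. Its groups did not overlap, but its level in control cells, 0.907 ± 0.205 CPM (SD, n = 3), was close to the floor. The ratio of itaconate to control was 0.133, with an exact 95% counting interval of 0.0149 to 0.568, and it was not called with the filter removed (edgeR adjusted p = 0.466). An exact two-sided permutation test of its CPM gave p = 0.1, the smallest value that 3 against 3 libraries allow. Groups without overlap always give this value, and C1qb, C1qc, C3, Cfp and Cfb gave it too, so it does not set C1qa apart. Control replicate 2 was the highest library for all 3 chains.

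C3, the gene of the protein on which all complement routes converge, fell. It had 1.32, 1.68 and 2.80 CPM in itaconate libraries, against 9.21, 16.6 and 12.1 CPM in control libraries, from 7, 9 and 16 counts against 55, 102 and 65 counts. The highest itaconate library was well under the lowest control library. The log2 fold change was -2.69 ± 0.43 (SE, edgeR adjusted p = 2.85e-06), or 6.44-fold lower. Of all 10636 tested genes, 74 had a lower log2 fold change. C3 was itself tested only because of its control libraries, so this rank adds no support for the fall. C3 lies on chromosome 17 from 57203970 to 57228136, and no 50-base stretch of its 3′ end is shared with another gene.

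Cfb, the gene of factor B, which supplies the protease of the alternative pathway convertase, fell as well, on few reads. It had 3, 6 and 6 counts in itaconate libraries and 41, 23 and 33 counts in control libraries, or 0.912 ± 0.303 CPM against 5.59 ± 1.64 CPM (SD, n = 3). The groups did not overlap, although control replicate 2 was lower than the other control libraries. The log2 fold change was -2.58 ± 0.66 (SE, edgeR adjusted p = 0.0025), with a 95% interval of -3.90 to -1.26 that holds the estimate for C3. Cfb lies on chromosome 17 from 34856374 to 34862518. GENCODE annotates a second gene on the same strand, Gm20547, over 79.5% of its exonic bases, and 70.9% of the 50-base stretches of its 3′ end also occur in transcripts of Gm20547. Gm20547 had no row among the counted symbols. How reads in such shared exons were counted is not given in the sources used here, so the level of Cfb is uncertain.

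Cfp, the gene of properdin, the plasma protein that stabilises the alternative pathway convertase, fell. Of the 5 genes tested, Cfp had the smallest standard error. Itaconate libraries had 60.6, 38.3 and 50.2 CPM, against 165.6, 148.5 and 154.5 CPM in control libraries. These values rest on 205 to 322 counts in itaconate libraries and 828 to 989 counts in control libraries, and the groups were far apart. The log2 fold change was -1.65 ± 0.13 (SE, edgeR adjusted p = 5.9e-15), which is 3.14-fold lower with a 95% interval of 0.266 to 0.381 for the ratio of itaconate to control. Cfp lies on chromosome X from 20925454 to 20931555, with no exon shared with another annotated gene. All 3 itaconate libraries were below all 3 control libraries for C1qb, C3, Cfb and Cfp, a pattern shown by 17.9% of all tested genes. C1qb, C3 and Cfb were tested only because of their control libraries, so this share cannot be used to judge their separation. With C3 and Cfb, Cfp completes the measured genes of the alternative route, since factor D (Cfd), the protease that cleaves factor B, had 0 counts in all 6 libraries.

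**Figure D1:**
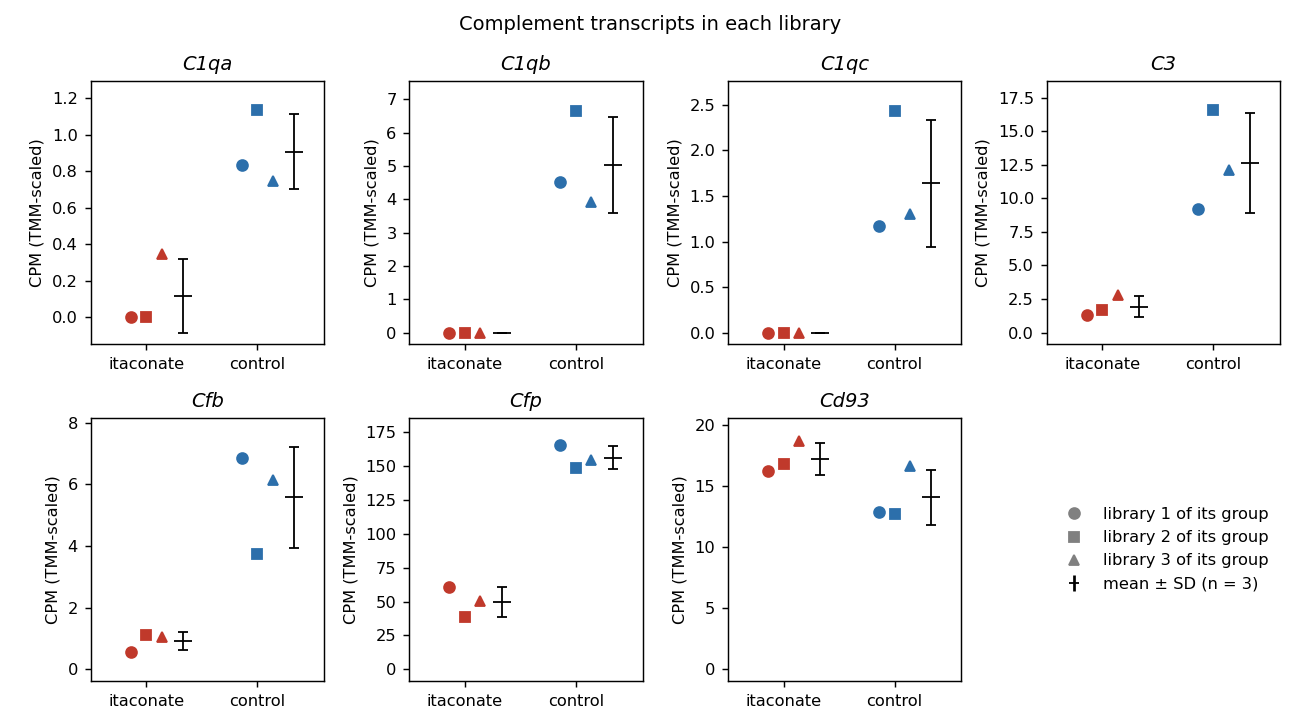
Level of each detected complement gene in CPM after TMM scaling (linear axis, its own range in each panel) for the 3 itaconate libraries (red, left) and the 3 control libraries (blue, right), with symbols for the library number and the mean ± SD in black. The groups are apart for C1qa, C1qb, C1qc, C3, Cfb and Cfp, with itaconate lower, and they overlap for Cd93.

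The profile of Cfp, the member with the highest mean CPM, was compared with 9198 other tested genes whose mean reached 5 CPM. The measure was the Euclidean distance between centred log2(CPM + 0.5) values over the 6 libraries, which share the group difference. The nearest genes were the chemokine gene Ccl6 (distance 0.219), Clec12a, an inhibitory C-type lectin receptor gene of myeloid cells (0.297), and Sgol1, which protects centromeric cohesion in mitosis (0.326). Their log2 fold changes were -1.65 for Ccl6, -1.76 for Clec12a and -1.79 for Sgol1. Clec12a had 82.1, 63.3 and 83.1 CPM in itaconate libraries and 256.5, 263.9 and 251.9 CPM in control libraries.

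Cd93, a type I membrane glycoprotein gene first described as a C1q receptor of phagocytes, was not called. Itaconate libraries had 16.2, 16.8 and 18.7 CPM, against 12.9, 12.7 and 16.6 CPM in control libraries. The ranges overlap, because control replicate 3 lies above itaconate replicate 1. The log2 fold change was 0.30 ± 0.26 (SE, edgeR adjusted p = 0.465) with a 95% interval of -0.22 to 0.81, so the fall seen for Cfp lies outside the interval, while a rise of up to 1.76-fold does not. Cd93 lies on chromosome 2 from 148436640 to 148443563.

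**Figure D2:**
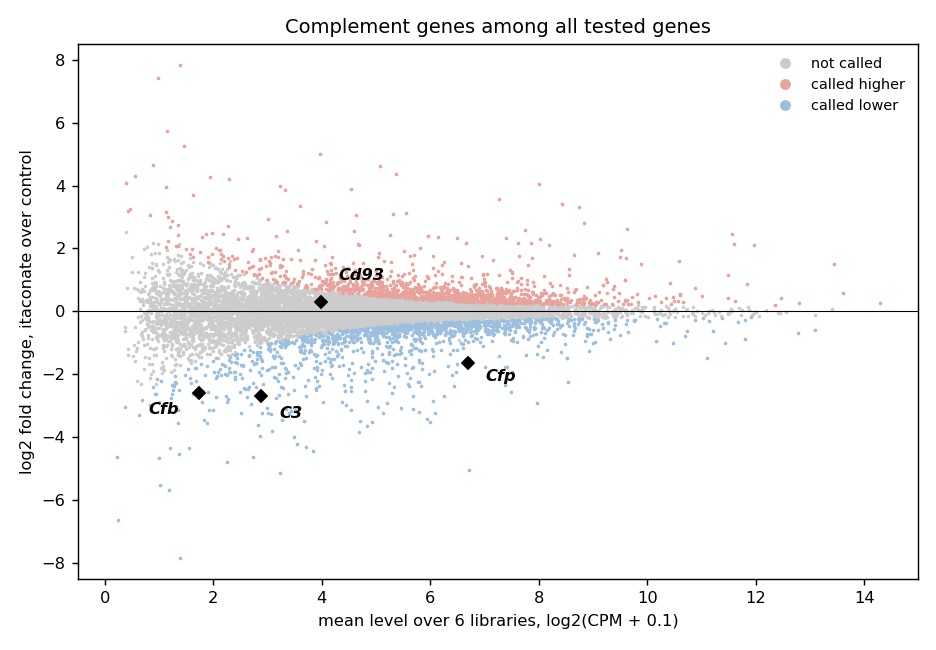
Log2 fold change of itaconate over control against the mean level over the 6 libraries as log2(CPM + 0.1), one point per tested gene, coloured by the edgeR call, with C3, Cfb, Cfp and Cd93 as black diamonds. C3 (-2.69), Cfb (-2.58) and Cfp (-1.65) lie among the genes called lower and Cd93 (0.30) among those not called, while C1qb is left unmarked because its fold change is only a bound.

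The regulators among the members were not detected. Serping1, the C1 inhibitor that blocks C1r and C1s, and Cd55, decay-accelerating factor, which takes apart C3 convertases on the cell's own surface, had 0 counts in all 3 itaconate libraries and all 3 control libraries. At this depth their level was at most 0.487 to 0.565 CPM in each library, and no difference between the groups could be detected. Serping1 lies on chromosome 2 from 84765387 to 84775444 and Cd55 on chromosome 1 from 130439027 to 130462744. Of the 50-base stretches of the 3′ end of Cd55, 11.4% also occur in its paralog Cd55b, which likewise had 0 counts.

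The rest of the complement system was read from 7 lists of its pathways, regulators and receptors, with 60 symbols besides the members. Of these, 58 had a row, 33 had a count and 18 were tested, of which 3 rose, 5 fell and 10 were not called. Of all 10636 tested genes, 10.7% were called higher and 11.2% lower. The median log2 fold change was -0.32 over these 18 genes and -0.01 over all tested genes, a difference that was not tested. The 25 genes with a row and 0 counts included C2, Mbl1, Mbl2, Masp1, Cfi and the terminal components Hc (C5), C6, C7, C8a and C8b. A further 15 had counts but were not tested, with at most 16 counts in a library (Masp2). They include C4a and C4b, near-identical copies between which reads cannot be assigned with certainty.

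In the other early steps, no gene was called. C1ra, the C1r protease that C1q activates, had 11.8 ± 2.89 CPM in itaconate and 18.1 ± 4.57 CPM in control libraries (SD, n = 3), with a log2 fold change of -0.62 ± 0.28 (SE, edgeR adjusted p = 0.104). It was called lower without control replicate 3 (adjusted p = 0.0479). Fcna, the gene of ficolin A, a pattern-recognition protein of the lectin pathway, had 37.2 ± 4.79 CPM in itaconate and 42.6 ± 3.14 CPM in control libraries (SD, n = 3), with a 95% interval of -0.54 to 0.14 for its log2 fold change. The interval of Fcna does not reach the fold changes of C3, Cfb or Cfp.

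Among soluble regulators, Clu, clusterin, which blocks the membrane attack complex, had 1, 17 and 4 counts in itaconate libraries and 25, 26 and 14 counts in control libraries. Itaconate replicate 2 lay inside the control range, and the fold change of -1.43 ± 0.73 on the log2 scale was not called (SE, adjusted p = 0.164). Without itaconate replicate 2, Clu was called lower at -2.97 (adjusted p = 0.0337).

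The 2 membrane regulators tested moved in opposite directions. Cr1l, also called Crry, the rodent inhibitor of C3 deposition on the cell's own membrane, fell to 64.8 ± 5.86 CPM in itaconate cells, against 108.7 ± 3.02 CPM in control cells (SD, n = 3). Its log2 fold change was -0.75 ± 0.12 (SE, edgeR adjusted p = 3.71e-06), and 13.3% of the 50-base stretches of its 3′ end are shared with Crry-ps and Gm49375. Cd59a, which stops assembly of the membrane attack complex, rose to 50.3 ± 3.77 CPM, against 29.6 ± 6.34 CPM in control cells (SD, n = 3), by 0.77 ± 0.18 on the log2 scale (adjusted p = 0.00074). Every itaconate library lay below every control library for Cr1l, as for 17.9% of all tested genes. For Cd59a every itaconate library lay above every control library, as for 17.6% of all tested genes.

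C3ar1 and C5ar1, the genes of receptors through which complement fragments attract and activate phagocytes, fell. C3ar1, the receptor of the anaphylatoxin C3a, had 83.7 ± 14.4 CPM in itaconate and 222.5 ± 8.13 CPM in control libraries (SD, n = 3), a log2 fold change of -1.41 ± 0.11 (SE, edgeR adjusted p = 4.39e-15). C5ar1, the main receptor of C5a, had 22.9 ± 3.11 CPM against 42.8 ± 7.38 CPM (log2 fold change -0.90 ± 0.19, adjusted p = 0.000232). For both genes every itaconate library lay below every control library, as for 17.9% of all tested genes. Of the genes of their ligands, C3 was detected in all 6 libraries and Hc, which encodes C5, in 0.

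Transcripts of the integrin receptors of cleaved C3 changed subunit by subunit. Itgam, the alpha chain of CR3, fell, with a log2 fold change of -0.54 ± 0.12 (SE, edgeR adjusted p = 0.000463) and 77.9 ± 8.74 CPM in itaconate and 112.9 ± 3.22 CPM in control libraries (SD, n = 3). Itgax, the alpha chain of CR4, rose by 1.04 ± 0.22 (adjusted p = 0.000266), and Itgb2, the beta chain of both, rose by 0.66 ± 0.10 (adjusted p = 2.52e-07). Exons of Itgam are also annotated to Gm49368 on the same strand, over 68.7% of its exonic bases. Of the 50-base stretches of the 3′ end of Itgam, 30.1% also occur in transcripts of Gm49368. Gm49368 had no row among the counted symbols, and how shared reads were counted is not given, so the level of Itgam is uncertain. Among genes of proteins reported to bind C1q, Calr (calreticulin) fell slightly, with a log2 fold change of -0.30 ± 0.08 (edgeR adjusted p = 0.00598). C1qbp had a log2 fold change of 0.15 ± 0.10 (edgeR adjusted p = 0.299) and the endocytic receptor gene Lrp1 of -0.23 ± 0.13 (edgeR adjusted p = 0.228). Lrp1 was called lower without control replicate 1, at -0.41 (adjusted p = 0.00251). The others not called were C1rl, Cr2, Scarf1 and Lair1, with log2 fold changes of -0.34, -0.36, -0.41 and 0.44.

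**Figure D3:**
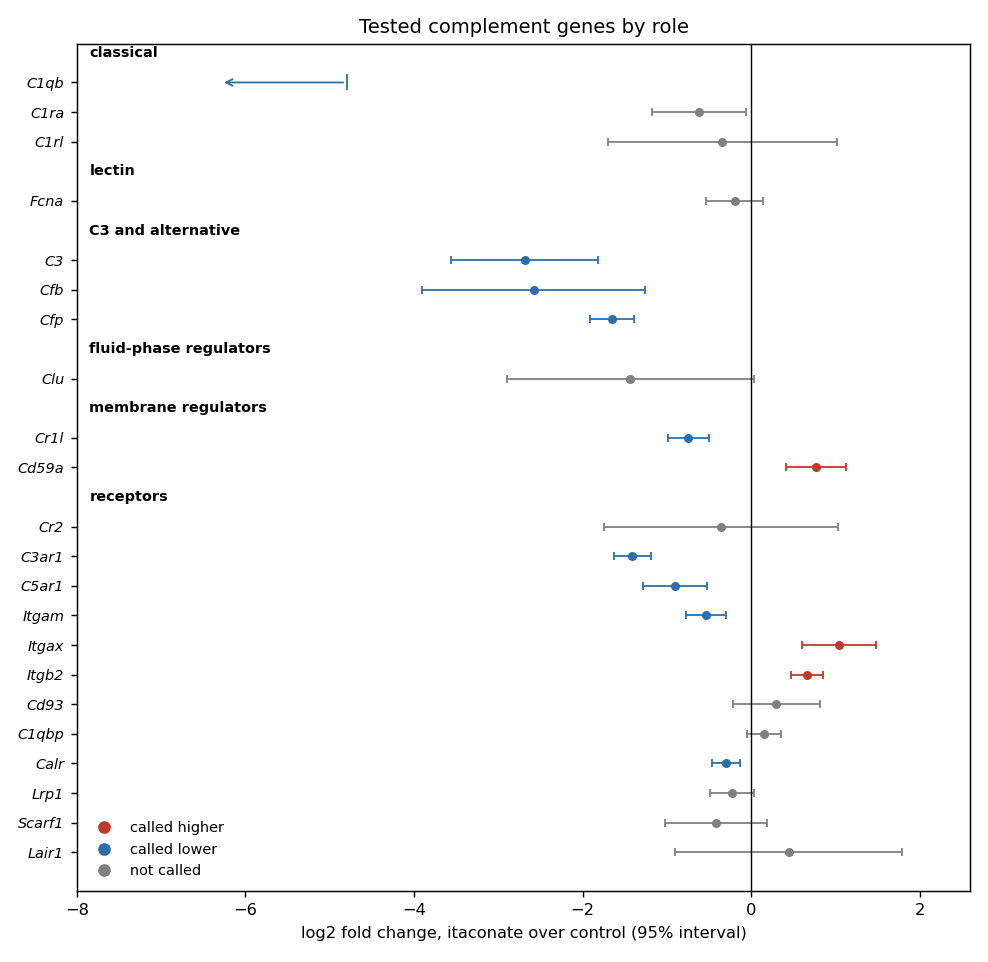
Log2 fold change of itaconate over control with its 95% interval for the tested complement genes reported here, grouped by role from top to bottom and coloured by the edgeR call. C1qb is drawn as an arrow from its bound, C3, Cfb and Cfp lie left of 0, and the membrane regulators (Cr1l and Cd59a) and the integrin chains (Itgam against Itgax and Itgb2) lie on both sides.

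C3, Cfb, Cfp and Cd93 kept the direction of their fold changes in each alternative in processing. Over up to 14 alternatives, the log2 fold change ran from -3.05 to -2.44 for C3, from -2.80 to -2.34 for Cfb, from -1.82 to -1.49 for Cfp and from 0.23 to 0.43 for Cd93. The highest adjusted p was 0.000591 for C3, 0.0311 for Cfb and 2.13e-11 for Cfp, and the lowest for Cd93 was 0.346. With a minimum count of 30 in the filter, C1qb and Cfb were no longer tested.

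**Figure D4:**
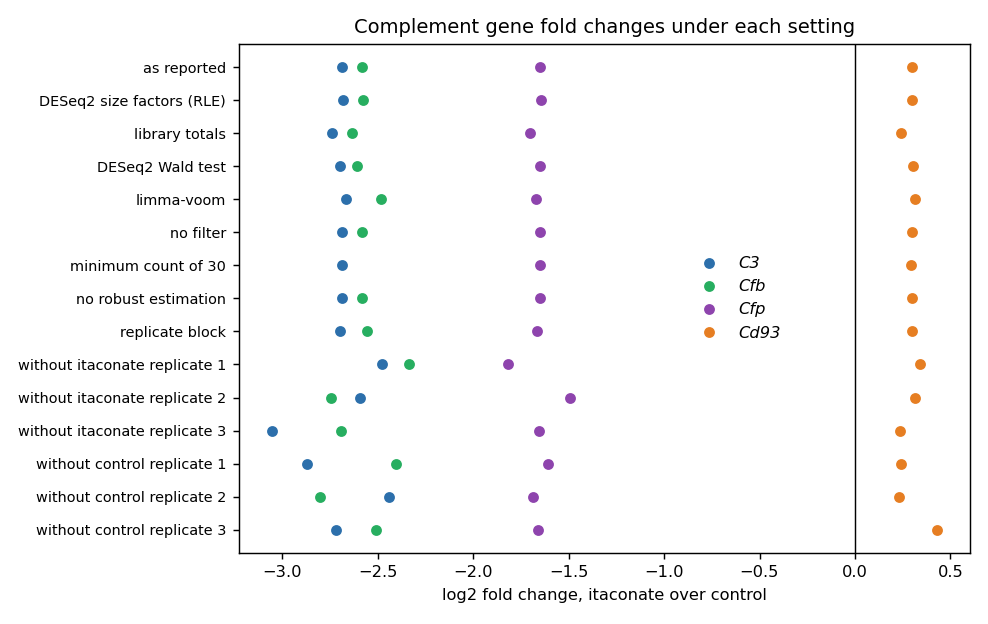
Log2 fold change of itaconate over control for C3, Cfb, Cfp and Cd93 as reported and under each of 14 alternatives in processing, 1 row per setting. C3, Cfb and Cfp stay left of 0 and Cd93 right of 0 in every row, and Cfb has no point at a minimum count of 30.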

How the data were processed

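Polyadenylated RNA extracted with TRIzol was sequenced from the 3′ end in 6 libraries (Lexogen QuantSeq FWD, per the labels' protocols). The deposited table holds raw counts, 1 row per gene symbol, without normalization. Per the submitters' processing notes, STAR 2.7.5a, HTSeq 0.6.1, edgeR and build mm10 were used, and the annotation version, strand setting and handling of multiply mapped reads were not given in the sources used here. Library names, 6 in the header after 2 empty cells, were matched to the titles.

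Genes were kept with edgeR's filterByExpr (minimum count 10, minimum total 15), libraries scaled by TMM, and groups compared by edgeR's two-sided quasi-likelihood test (version 4.0.16 in R 4.3.3, robust, group as the only term) over 10636 genes with Benjamini-Hochberg adjustment. The method was tested on simulated data whose changes were smaller than those of C1qb, C3 and Cfb, so that test does not cover changes of their size. SE is the absolute log2 fold change over the square root of F. Alternatives used DESeq2 1.42.0, limma 3.58.1, other scalings and filters, a replicate block, and fits without each library. Exon overlaps come from GENCODE M21 (GRCm38) and promoters from RefSeq. The members and lists were chosen with earlier results of these data known. All 9 members, every called gene of the lists and the 3 genes nearest to the most abundant member were named, apart from some items not reported here. Replicates differed by more than sampling noise (chi-square per gene 4.81 to 7.76).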

Additional observations from a re-analysis of the deposited data

How the results depend on the processing

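Under the 14 alternatives, all 68 values of the 5 tested members kept their direction and their side of the threshold. The direction of the 13 values of C1qb was fixed in advance by its 0 counts in itaconate libraries. C3 and Cfb were likewise tested only because of their control libraries. Of 248 values of the 18 other tested complement genes, 242 kept both direction and side. A change of sign without a call was seen in 3, when 1 library was left out: Cr2 without control replicate 1 (0.25), and Lair1 without itaconate replicate 1 (-0.079) and without control replicate 2 (-0.011). A further 3 gained a call when 1 library was left out: C1ra without control replicate 3, Clu without itaconate replicate 2 and Lrp1 without control replicate 1. Members called lower numbered 2 with a minimum count of 30, because C1qb and Cfb were then not tested, and 5 with no filter, which added C1qc. Without each replicate in turn, and in the other fits, 3 of the other complement genes were called higher and 5 or 6 lower. Over all genes, 882 to 1147 were called higher and 915 to 1429 lower. The numbers in the titles are not said to pair the libraries. Deviations from the group means correlated at -0.013, 0.017 and 0.038 between libraries with the same number, and at -0.042 to 0.028 between the others. These values cannot decide whether libraries with the same number shared a culture or day. A replicate block gave 4 members lower and 0 higher, 3 other complement genes higher and 5 lower, and 1087 genes higher and 1160 lower in all. It gave log2 fold changes of -2.70 for C3, -2.56 for Cfb, -1.67 for Cfp and 0.30 for Cd93, and changed no call of these genes. Depth limits what can be said of C1qa, C1qc, Cd55 and Serping1.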
